A study of Mus musculus with 2 samples.

Results

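Cartilage of the growing long bone contains no blood vessels, and its chondrocytes depend on the hypoxia-inducible factor (HIF) system to live at low oxygen. The 10 genes described here were taken by name from that system: the oxygen-regulated subunits Hif1a and Epas1, their partner Arnt, the regulators Vhl, Egln1 and Egln3, and the targets Vegfa, Slc2a1, Bnip3 and Ddit4. They are 10 of 20807 autosomal protein-coding genes in the GENCODE mouse annotation. Open chromatin was measured by ATAC-seq, in which a transposase inserts sequencing adapters into accessible DNA. Every open region inside or within 50 kb of a member gene was collected, which gave 40 of the 32388 regions obtained by merging overlapping peaks of the 2 lists.

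The 2 samples were the proximal and the distal cartilaginous end of the femur of E15.5 mouse embryos of the FVB strain (FVBNJ in the labels), untreated and with no engineered allele named. Tissue of each end was pooled over a litter of 8 animals on average, and 50000 cells entered each library. The dissected ends held all chondrocyte zones, the perichondrium and the cartilage above the growth plate, so the cells were not a purified population, and a site open in few cells and a site weakly open in many cannot be told apart. Each end is represented by 1 peak list that combines 2 biological replicates, with 28257 proximal and 27958 distal peaks. The lists give positions without height, score or read depth, so the values below have no replicate error, no test of a difference between the ends was possible, and a peak missing from a list is a peak that was not called there. Intervals are 95% Wilson intervals and cover counting error only. They treat regions as independent, although regions of the same gene are not.

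When oxygen is present, the prolyl hydroxylases encoded by Egln1 and Egln3 mark the HIF alpha subunits, and the VHL protein then directs them to degradation. When oxygen is scarce, the alpha subunits accumulate, pair with ARNT and bind the hypoxia response element, whose core is ACGTG or GCGTG. In the growth plate HIF1A is known to be needed for survival of the innermost chondrocytes, and VEGFA is the signal that draws vessels towards hypertrophic cartilage. An open region shows access to DNA and measures neither transcription nor binding by a HIF.

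The sequences below are shown because they hold hypoxia response cores or AP-1 sites that the text describes or only counts, at promoters and at regions away from them. They were read from the mm10 reference genome, which is that of another strain, on the strand of the gene and 5′ to 3′. Capitals mark ACGTG or GCGTG, or the same letters read on the opposite strand as CACGT or CACGC, and TGAGTCA, the letters bound by AP-1 factors. In the line for the Vegfa element they mark TACGTGGG, the known hypoxia response element of the VEGF promoter.
Hif1a outer promoter, chr12:73901236-73901300: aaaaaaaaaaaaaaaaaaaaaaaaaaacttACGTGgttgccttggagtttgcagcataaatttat
Epas1 promoter, chr17:86753532-86753596: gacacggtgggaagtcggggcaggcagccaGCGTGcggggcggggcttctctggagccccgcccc
Egln1 promoter, proximal list only, chr8:124949346-124949410: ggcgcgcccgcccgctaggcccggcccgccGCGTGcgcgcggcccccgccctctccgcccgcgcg
Egln3 intron 1, chr12:54192085-54192149: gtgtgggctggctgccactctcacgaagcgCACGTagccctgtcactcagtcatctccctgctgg
Egln3 upstream, distal list only, chr12:54214574-54214666: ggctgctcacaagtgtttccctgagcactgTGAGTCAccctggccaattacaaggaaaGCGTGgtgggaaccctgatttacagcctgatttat
Vegfa element, outside any peak, chr17:46033264-46033331: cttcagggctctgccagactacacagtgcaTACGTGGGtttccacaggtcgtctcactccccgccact
Vegfa upstream, distal list only, chr17:46071695-46071761: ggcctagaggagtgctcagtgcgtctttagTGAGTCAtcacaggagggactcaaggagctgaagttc
Vegfa upstream, proximal list only, chr17:46074064-46074128: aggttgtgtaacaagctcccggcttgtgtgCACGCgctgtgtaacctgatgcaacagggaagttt
Slc2a1 outer upstream region, chr4:119102393-119102504: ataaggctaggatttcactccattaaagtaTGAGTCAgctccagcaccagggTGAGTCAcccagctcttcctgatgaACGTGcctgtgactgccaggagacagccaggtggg
Slc2a1 inner upstream region, chr4:119105919-119105996: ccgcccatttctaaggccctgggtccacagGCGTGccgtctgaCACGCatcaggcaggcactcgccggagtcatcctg
Slc2a1 intron, proximal list only, chr4:119121436-119121546: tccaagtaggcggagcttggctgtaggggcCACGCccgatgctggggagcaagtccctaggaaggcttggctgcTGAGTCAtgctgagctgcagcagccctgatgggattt
Bnip3 promoter, chr7:138909571-138909653: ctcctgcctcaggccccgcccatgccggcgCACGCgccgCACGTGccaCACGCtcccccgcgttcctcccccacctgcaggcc
Bnip3 upstream region, chr7:138919451-138919590: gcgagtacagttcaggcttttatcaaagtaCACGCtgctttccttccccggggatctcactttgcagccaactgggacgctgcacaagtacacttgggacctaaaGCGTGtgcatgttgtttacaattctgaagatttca

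All 10 genes had an open promoter in at least 1 femur end, and 9 of them had it in both. A promoter region is one whose nearest edge lies within 1 kb of an annotated transcript start of the gene. Of 20807 autosomal protein-coding genes, 55.0% had a promoter peak in both lists and 4.14% in 1 list only. The exception among the members was Egln1, which had a promoter peak in the proximal list and none in the distal list. Of the 40 regions, 11 were promoter regions, 5 lay in introns, 12 upstream and 12 downstream of their gene, and 0 were exonic by their centre. A start of another gene lay within 1 kb of 9 of them, and 20 were more than 1 kb from any annotated start.

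**Figure D1:**
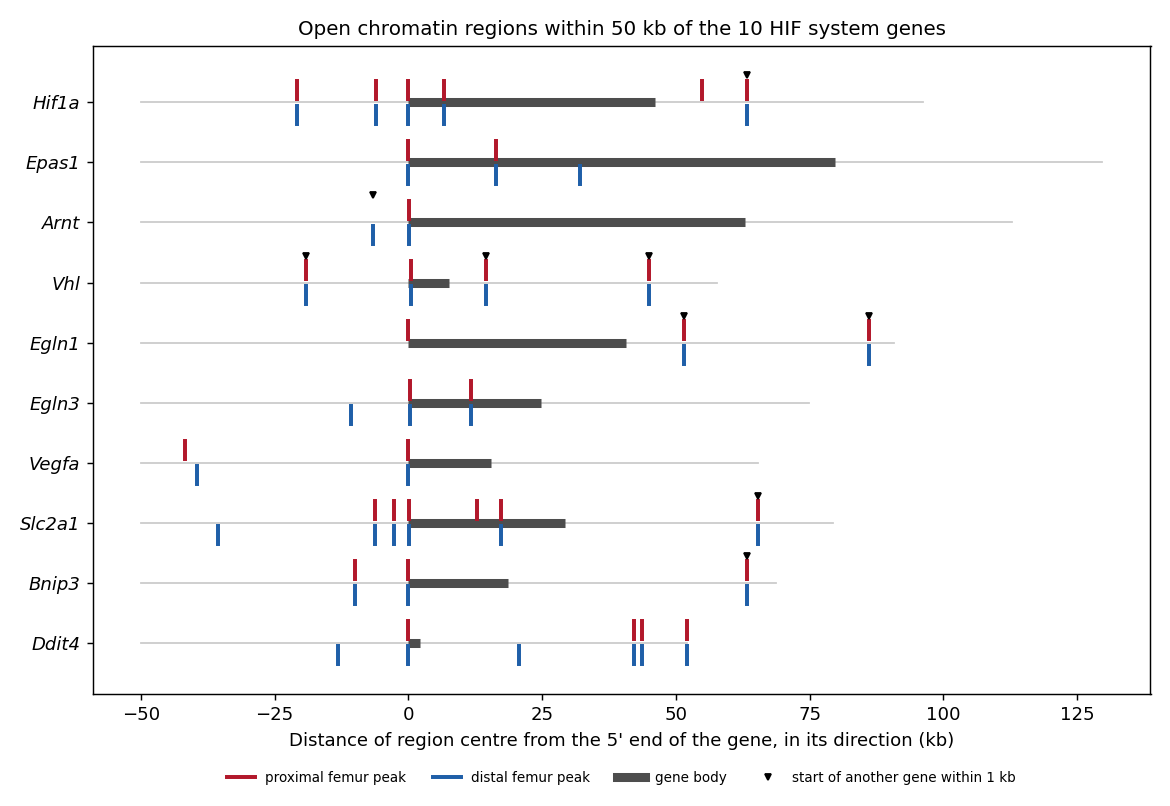
Positions of the 40 open regions within 50 kb of the 10 genes, as the distance in kb of each region's centre from the 5′ end of the gene in its own direction. Red bars above a line are proximal peaks, blue bars below it are distal peaks, grey blocks are gene bodies and black triangles mark starts of other genes within 1 kb. Most regions carry both colours, and 11 carry 1.

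Hif1a, on the plus strand at chr12:73901375-73947530, encodes the alpha subunit that is present in nearly all cells, and it had 6 regions. As many regions or more lay within 50 kb of 17.2% of protein-coding genes. It was the only member with 2 promoter regions, and both lists held both of them. The outer region, chr12:73901073-73901569, covered the start of 1 coding transcript with peaks of 464 bp in the proximal and 461 bp in the distal list. The inner region, chr12:73907383-73908648, covered the start shared by 2 coding transcripts 6529 bp further on, with peaks of 1256 and 1258 bp. These promoters differed in kind: the outer region had a GC content of 39.2% and was narrower than most promoter regions, of which 7.49% were as narrow or narrower, while the inner region had a GC content of 70.5% and a CpG ratio (observed over expected) of 0.896, against a median of 0.712 over all promoter regions. Both also lie within an annotated noncoding gene, Gm15283. Upstream, 2 regions centred at -6092 and -20751 bp (negative positions lie before the annotated start) were open at both ends, and each contained an AP-1 site. Downstream, a region of 488 bp was called in the proximal list only, and a shared region lay at the start of Snapc1, a subunit of a complex that activates transcription of small nuclear RNA genes.

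Epas1 encodes the second alpha subunit, HIF-2 alpha, which is best known from endothelium and is also active in cartilage, and it lies on the plus strand at chr17:86753700-86833410. Its 3 regions were all at the promoter or in intron 1. The promoter region, chr17:86753057-86754205, had a peak of 749 bp in the proximal list and of 1149 bp in the distal list. The distal peak spanned -643 to 505 bp from the start and the proximal peak -556 to 192 bp. The distal peak was the wider one, mostly by its reach into the gene, and the overlap was 65.2% of the combined width, compared with a median of 88.7% over all paired peaks. In intron 1 a shared region was centred 16327 bp from the start, with 720 bp in the proximal and 778 bp in the distal list, and contained TGAGTCA. A further intronic region of 516 bp, chr17:86785536-86786051, was called in the distal list only, 15128 bp from the nearest proximal peak.

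Arnt encodes the constitutive partner of both alpha subunits, and had the fewest regions, 2, a number reached or passed by 74.5% of protein-coding genes. On the plus strand at chr3:95434388-95497240, it had a promoter region shared by both lists, with 890 bp in the proximal and 933 bp in the distal list, which covered 7 transcript starts. The remaining region, 490 bp wide and found in the distal list only, was centred at -6636 bp at the start of the noncoding gene Gm4349. Apart from the promoter region, which reached into the gene, no region lay inside this gene, which is 62853 bp long.

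Vhl, whose product is the recognition subunit of the ubiquitin ligase for hydroxylated alpha subunits, is a short gene on the plus strand at chr6:113623959-113631633. All 4 regions in its window were shared. Its promoter region, chr6:113623847-113624927, lay mostly inside the gene, from -112 to 968 bp in the proximal list and from -82 to 794 bp in the distal list. The other 3 were at starts of neighbours, Brk1, an actin-nucleation subunit, and Irak2, an interleukin receptor kinase. With these set aside, the promoter region was the only one left near Vhl.

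The sensors Egln1 and Egln3 differed in the layout of their open chromatin. Egln1, which encodes the main prolyl hydroxylase PHD2, lies on the minus strand at chr8:124908587-124949324. Its promoter peak was 579 bp wide in the proximal list, chr8:124949185-124949763, and the nearest distal peak was 50823 bp away. That is the largest such distance among the 11 regions called in 1 list, and it ended at the promoter region shared by Exoc8 and Sprtn. Its GC content was 78.1%, and 0.0653% of promoter regions had a GC content as high or higher. Over all promoter regions the median GC content was 52.1% for those called in the proximal list only, 60.5% for those in the distal list only and 60.4% for shared ones. The part of base composition or depth in the missing distal call was not tested. Genes with a promoter peak in 1 list only were 286 for the proximal and 576 for the distal list. The remaining 2 regions near Egln1 were shared and belonged to starts of other genes, Exoc8 and Sprtn at the one and Gnpat and 2810004N23Rik at the other, so no region of its own outside the promoter was called.

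Egln3 encodes PHD3, a hydroxylase that is itself induced by HIF, and lies on the minus strand at chr12:54178981-54203860. Its promoter region was shared, with 918 bp in the proximal and 961 bp in the distal list, and contained 5 hypoxia response cores over its whole width, a number reached or passed by 26.0% of promoter regions. A shared region in intron 1, chr12:54191820-54192388, had nearly the same borders at both ends, 569 and 563 bp, with an overlap of 98.9%. This was the closest match among the 29 paired regions. Its only core, printed above, lies 13 bp from the centre. Upstream, a region of 543 bp, chr12:54214313-54214855, was called in the distal list only, 10242 bp from the nearest proximal peak. Its central core and its TGAGTCA stand close together in the sequence printed above.

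**Figure D2:**
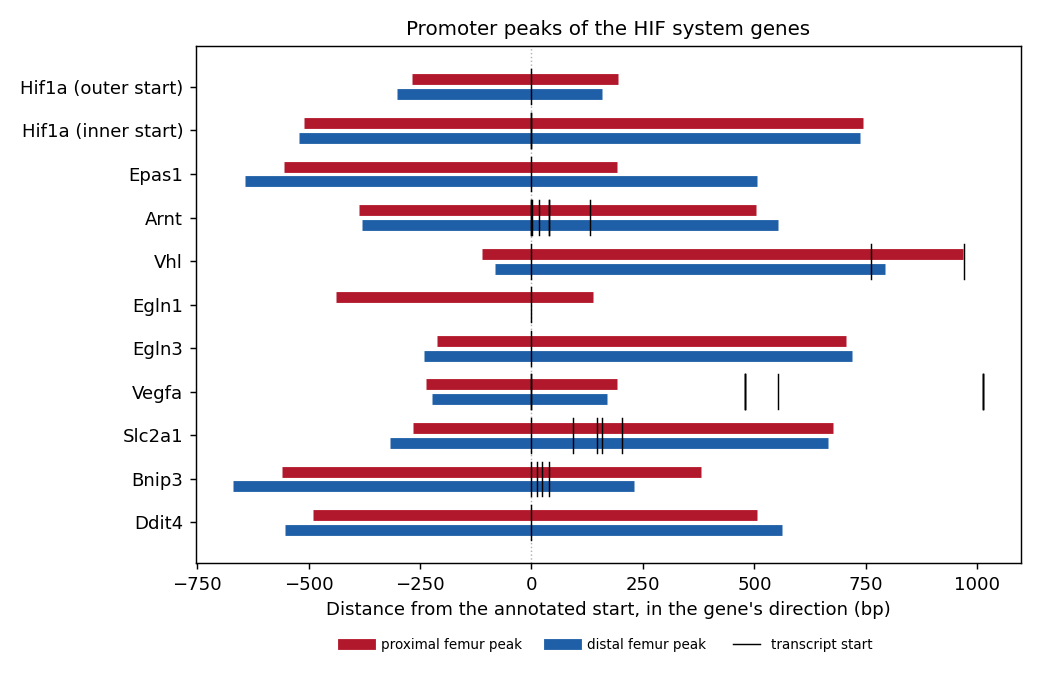
Promoter peaks of the 10 genes, drawn from their upstream to their downstream edge in bp from the annotated start, in the gene's direction (proximal list red, distal list blue, transcript starts as black lines). Hif1a has an outer and an inner promoter. The edges of most pairs lie close together, Epas1 extends further into the gene in the distal list (505 against 192 bp), and Egln1 has a proximal peak only.

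Vegfa, the vascular growth factor secreted by hypertrophic chondrocytes, lies on the minus strand at chr17:46016993-46032369. It had a narrow promoter region, chr17:46032177-46032606, with 430 bp in the proximal and 393 bp in the distal list. Only 4.52% of promoter regions were as narrow or narrower, and it was the only promoter region among the members without a core anywhere in its width. The TACGTGGG element stood at -929 bp, 688 bp outside the region, in sequence where neither list had a peak. Within 3 kb of the start, TACGTGGG was found at no other member and at 4.71% of protein-coding genes. Further upstream, centred at -39423 and -41689 bp inside an annotated noncoding gene, each list had 1 peak that the other lacked: a distal peak of 465 bp, chr17:46071560-46072024, and a proximal peak of 611 bp, chr17:46073753-46074363, which were 1729 bp apart. The distal one contained TGAGTCA and no core, the proximal one a core and no TGAGTCA.

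Slc2a1 encodes the glucose transporter GLUT1, which feeds glycolysis in cartilage, and had the most regions of all members, 7, a number reached or passed by 10.0% of protein-coding genes. It lies on the plus strand at chr4:119108711-119137983. Its promoter region covered all 5 transcript starts, with 943 bp in the proximal and 985 bp in the distal list. Upstream, 2 shared regions were centred at -2723 and -6224 bp. An enhancer upstream of this promoter that responds to hypoxia has long been known in the mouse, and the regions here were not compared with it. The inner region, chr4:119105642-119106334, measured 676 bp in the proximal and 675 bp in the distal list and held 2 cores in opposite orientation, at -2760 and -2747 bp. The outer region, chr4:119102160-119102813, held 1 core at -6239 bp and TGAGTCA at -6285 and -6263 bp. Within the gene, a region of 397 bp was called in the proximal list only and contained both a core and TGAGTCA, and a shared region measured 450 bp in the proximal and 557 bp in the distal list. A distal peak of 497 bp stood at -35577 bp, 28778 bp from the nearest proximal peak, and a shared region downstream lay at the start of Zfp691, a zinc finger gene.

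Bnip3, whose product drives removal of mitochondria and is known to be induced by hypoxia, lies on the minus strand at chr7:138890836-138909519, and its 3 regions were all shared. The promoter region measured 941 bp in the proximal and 899 bp in the distal list. It held 8 cores over its whole width and 3 in its central 200 bp, numbers reached or passed by 6.05% and 5.82% of promoter regions. The 3 central sites stand at -84, -93 and -102 bp, and the middle one is CACGTG, which counts as 1 site because it reads ACGTG on both strands. Centred at -10045 bp, a region with no other start nearby measured 834 bp in the proximal and 708 bp in the distal list and held 6 further cores. The third region, downstream, was the common promoter of Mapk1ip1 and Ppp2r2d.

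Ddit4 encodes REDD1, which restrains mTORC1 signalling under hypoxia and other stress. The gene is only 2166 bp long, on the minus strand at chr10:59949669-59951834, and had 6 regions, none of them at a start of another gene. That is 5.87 regions per 100 kb, a density reached or passed by 5.52% of protein-coding genes. The promoter region had 998 bp in the proximal and 1116 bp in the distal list. Downstream, 3 shared regions were centred 42234, 43720 and 52062 bp from the start. The last of these lay 49478 bp from the gene, just inside the 50 kb limit. Both regions called in 1 list were distal: one of 368 bp, 20667 bp downstream, and one of 966 bp, chr10:59964414-59965379, centred at -13063 bp, which was the widest of the 11 single-list regions and contained 2 AP-1 sites.

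Of the 40 regions, 29 (72.5%, interval 57.2% to 83.9%) had a peak in both lists, compared with 73.0% of all merged regions. Near the members, 4 of 33 proximal peaks (12.1%, interval 4.82% to 27.3%) overlapped no distal peak, against 16.1% of the whole proximal list. For distal peaks the number was 7 of 36 (19.4%, interval 9.75% to 35.0%), against 15.0% of the whole distal list. All 3 intervals include the value of the whole lists. By position, 10 of 11 promoter regions and 8 of the 9 regions at starts of other genes were shared, beside 12095 of the 13774 regions within 1 kb of a start in all. Away from any start 11 of 20 were shared (55.0%, interval 34.2% to 74.2%), beside 62.0% of the 18614 such regions in all. The median width was 497 bp for the 11 single-list regions and 850 bp for the 29 shared ones, beside 504 and 812 bp over all merged regions. When the narrower peaks of each list, those below its median width, were dropped, 20 regions remained near the members, of which 0 were in the proximal and 3 in the distal list only. Of these 3, only the region of 966 bp upstream of Ddit4 was distal-only before the filter. The shared start of Exoc8 and Sprtn and a shared region downstream of Ddit4 lost their proximal peaks, of 694 and 653 bp, to the proximal median of 711 bp.

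Where both lists had a peak, most pairs had similar borders. The overlap made up between 59.3% and 98.9% of the combined width of the 29 pairs, with a median of 93.5%. The distal peak was the wider one in 18 pairs and the proximal peak in 11. Over all paired peaks, the proximal peak was the wider one in 57.1%. The median ratio of distal to proximal width was 1.02 for the members and 0.981 over all pairs, so the typical difference was small. The pairs that overlapped least were the shared start of Exoc8 and Sprtn near Egln1, with 694 bp in the proximal and 1171 bp in the distal list, the Slc2a1 intron at 64.0% and the Epas1 promoter.

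**Figure D3:**
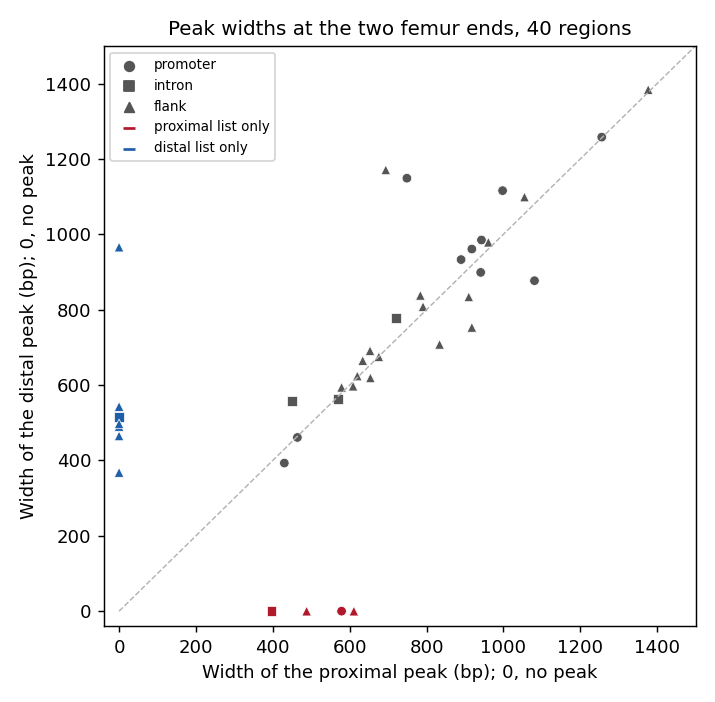
Width in bp of the distal peak against that of the proximal peak for the 40 regions, with 0 where a list had no peak. Circles are promoter regions, squares introns and triangles flanks, and the dashed line marks equal widths. Most of the 29 shared regions lie near the line. Farthest from it are a region near Egln1 (proximal 694 bp, distal 1171 bp) and the Epas1 promoter (proximal 749 bp, distal 1149 bp). The 4 red and 7 blue symbols on the axes are the regions called in 1 list.

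Hypoxia response cores were counted in the 200 bp around the centre of each region, on both strands, with overlapping matches taken as 1 site. Among all 40 regions 23 had a core (57.5%, interval 42.2% to 71.5%), compared with 35.1% of all merged regions. Most of the members' promoters had one, 7 of 11 (63.6%, interval 35.4% to 84.8%), and so did 49.9% of all promoter regions. Over their whole width, the members' promoter regions held a median of 3 cores, the same as all promoter regions (3.78 against 3.29 per kb). Away from any start, 11 of 20 regions had a core (55.0%, interval 34.2% to 74.2%), beside 24.0% of all such regions. Several of the 20 regions share a gene, so this interval is too narrow for a statement about the genes. Members' regions there were also richer in GC, with a median of 53.8% against 47.2%, and cores contain CG. Between the quartiles of the members' GC content, 49.7% and 57.2%, 7 of 10 member regions and 29.4% of 5194 regions in all had a core. The median CpG ratio away from starts was also higher for the members, 0.270 against 0.230, and was not matched. With ACGTG alone the count was 3 of 20 (15.0%) against 11.5%, so most of these cores were GCGTG. Among the wider peaks alone it was 2 of 6 (33.3%) against 25.2%, and over the whole width of the regions 15 of 20 (75.0%) against 50.2%. A core is a short sequence that occurs often, and its use was not measured.

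The cores away from starts were unevenly spread over the genes. None of the 5 regions near Hif1a and Epas1 had one in its central 200 bp, while 11 of the 15 near Egln3, Vegfa, Slc2a1, Bnip3 and Ddit4 did. Over the whole width of the regions the counts were 2 of 5 and 13 of 15, beside 50.2% of all such regions. The median GC content of these regions was 45.5% and 55.1%, respectively. This division of the genes was made after the values had been seen and was not tested. Away from starts, a core was present in 6 of 11 shared, 2 of 3 proximal-only and 3 of 6 distal-only regions, beside 25.0%, 19.5% and 26.3% of all such regions.

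AP-1 sites, TGAGTCA or its complement TGACTCA, were found in the members' regions at shares near those over all regions. In the central 200 bp they occurred in 0 of 11 promoter regions, against 5.60% of all promoter regions, and in 7 of 20 regions away from starts (35.0%, interval 18.1% to 56.7%), against 30.4% of all such regions. A core and an AP-1 site stood together in 4 of these 20, the distal-only region upstream of Egln3, the outer upstream region and the proximal-only intron region of Slc2a1, and a region downstream of Ddit4. Over all regions away from starts the share with both was 6.60%. A core, with or without an AP-1 site, was found in 55.0% of the 20 regions, against 24.0% of all such regions. Whether the sites stood together more often than their separate shares give was not tested.

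**Figure D4:**
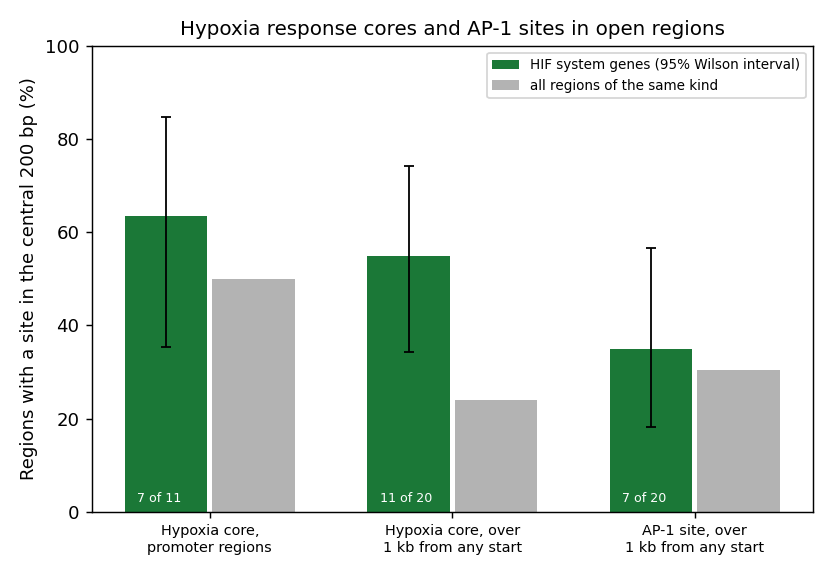
Share in percent of regions with a hypoxia response core or an AP-1 site in their central 200 bp, for the HIF system genes (green, with 95% Wilson intervals and counts) and for all regions of the same kind (grey). The gap is widest away from starts, 55.0% against 24.0% for the core, and the AP-1 shares of 35.0% and 30.4% lie close together.

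The remaining genes of the pathway were taken as a list of 55, of which 54 are autosomal. Pgk1, a glycolytic enzyme, lies on the X chromosome, from which the lists hold 0 peaks. A promoter peak was present in both lists for 49 genes (90.7%), in the distal list only for 3 and in neither list for 2, beside 55.0% of all autosomal protein-coding genes in both lists and 4.14% in 1 list only. Neither this list nor the members were compared with genes of similar activity, which was not measured. All 5 genes of mitochondria and growth arrest, all 6 of collagen modification and 4 of 4 other targets had an open promoter at both ends, as had 18 of 19 genes of glucose use and 10 of 11 HIF subunits and regulators. In the group of vessels, oxygen and acid it was 6 of 9 (66.7%). The exceptions were Arnt2, an ARNT relative, Aldoc, an aldolase, and Car12, a carbonic anhydrase, which were distal only, and Adm, the vasodilator adrenomedullin, and Car9, the HIF-induced carbonic anhydrase, which had no promoter peak. Both latter genes had peaks elsewhere within 50 kb, 3 regions near Adm and 6 near Car9. The median number of regions within 50 kb was 4 for this list, 3 for the members and 3 for all protein-coding genes.

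The tissue was checked against marker genes of the cell types that the dissection could hold, by the presence of a promoter peak in both lists. Such a peak was found for 55.0% of all autosomal protein-coding genes. Among chondrocyte markers 7 of 10 had one, Sox9, Col2a1, Acan, Sox6, Matn3, Col9a1 and Col11a1, while Sox5 was proximal only, Comp distal only and Matn1 had none. Markers of osteoblasts had none (0 of 4 autosomal genes), and neither had those of blood (0 of 5). Regions shared by both lists still lay within 50 kb of several of these genes, such as 3 near Sp7 and 4 near Tal1. A missing promoter peak therefore does not show that a cell type was absent. Kdr, a VEGF receptor that also stands in the pathway list, was open at both ends as 1 of 6 endothelial markers and Tek in the distal list only. Among the others, Mef2c was open as 1 of 4 hypertrophic genes, Actn2 as 1 of 5 muscle genes and Epcam as 1 of 5 epithelial genes, with Krt8 distal only. The hypertrophic genes Col10a1, Ihh and Runx2 had no promoter peak in either list, although the dissected ends held the hypertrophic zone.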

How the data were processed

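Peak lists were analysed for 1 proximal and 1 distal femur sample. Per the processing notes in the labels, reads were aligned to mm10 with Bowtie2 2.2.8 and peaks called with MACS2. The authors removed duplicate reads and filtered the peaks of 2 biological replicates by an irreproducible discovery rate of 0.05. The deposited files hold chromosome, start and end only, read here as BED. Read depth was not analysed here.

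Peaks were merged where they overlapped by at least 1 bp and compared with GENCODE mouse release 21 and the GRCm38 genome, whose sequence is that of mm10, using Python 3.11.15, NumPy 2.4.6, SciPy 1.17.1 and pysam 0.24.0. Coordinates are 1-based. Overlap, position and motif functions were tested on simulated data. All 10 member genes are named, other pathway genes where a promoter peak was missing, and other genes whose start lay at a member's region. The members, lists and settings were chosen with earlier results of these data known. No p-values were computed.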

Additional observations from a re-analysis of the deposited data

How the results depend on the processing

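No paired analysis was possible because each peak list combines its replicates. Of the recomputed values, 34 stayed within 1.5 times the count or within the Wilson interval of the share, and 14 moved. Dropping the peaks below the median width of each list left 20 regions, 11 of them in flanks and 1 in an intron, with 85.0% shared (71.3% of all merged regions), 0 proximal-only and 3 distal-only regions, and a core in 33.3% (2 of 6) of regions away from starts (25.2% of all). This filter removes the narrower peaks by construction. It also made shared regions near Egln1 and downstream of Ddit4 distal-only, because it dropped their proximal peaks. Within 20 kb of the genes the flanks held 13 regions, and within 100 kb they held 40, with a median of 5 regions per member. With whole regions the share with a core was 82.5%, and 75.0% away from starts, beside 66.1% and 50.2% of all regions. With ACGTG alone it was 15.0% in both sets, beside 14.0% and 11.5%. Promoter definitions changed no count by over 1.5 times: with 3 kb, the inner upstream region of Slc2a1 became a promoter region, which made 12. The number of members with a promoter peak in both lists was 9, or 8 among the wider peaks.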
